A study of Papio hamadryas with 4 samples.

Results

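The nuclear-encoded subunits of the oxidative phosphorylation system were followed in kidney biopsies of baboons (Papio hamadryas) that differed in sodium intake and in phenotype. Members were the genes whose symbol in the platform annotation belongs to the NDUFA, NDUFB, NDUFC, NDUFS and NDUFV subunits, to succinate dehydrogenase, to the UQCR genes and CYC1, to the COX4 to COX8 subunits, or to the ATP5 genes, without the NDUFAF assembly factors. They numbered 83 of 18774 genes, on 98 of 48702 probes. Of these, 35 fell to complex I, 3 to complex II, 9 to complex III, 17 to complex IV and 18 to complex V. The remaining gene, NDUFV2-AS1, is an antisense RNA that shares the prefix and was not detected. The prefix also brought in ATP5IF1, the inhibitor of the ATP synthase, COX7A2L, a factor of respiratory supercomplexes, and UQCRHL, a retrocopy of the complex III gene UQCRH.

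Complexes I and II pass electrons from NADH and succinate to coenzyme Q, complex III passes them on to cytochrome c, and complex IV reduces oxygen. Complexes I, III and IV pump protons across the inner mitochondrial membrane, and complex V, the ATP synthase, uses the gradient to make ATP. In the kidney this system is densest in the proximal tubule and the thick ascending limb, whose sodium reabsorption consumes most of the organ's oxygen. Each complex holds core subunits that carry the redox or catalytic centres and accessory subunits that stabilise it.

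The study set animals with a high SLC phenotype (HSLC) beside animals with a normal one (NSLC), and the labels do not spell out the abbreviation. Both phenotypes ate a high sodium and a low sodium diet for 6 weeks each. The groups are HSLC on high sodium, HSLC on low sodium, NSLC on high sodium and NSLC on low sodium, with 1 array each. No source used here gives the animals' ages, the number behind an array or the order of the diets. The arrays were Illumina BeadArrays designed on human transcripts, which were applied here to baboon RNA.

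Levels below are normalized log2 signals of a gene's brightest probe, and detection on an array meant a deposited intensity over that array's median. With 1 array per group, a ratio of 1 array over another has no replicate check and no p-value, and a size rule of 1.5-fold was used to count. The only test was a limma model with additive terms for diet and for phenotype. It has 1 residual degree of freedom, its error comes from the mismatch between the diet ratios of the phenotypes, and it holds no spread between animals. Of the 83 members, 67 were detected on all 4 arrays and entered the fit, among 11909 genes in all. Of the other 16, COX7B2 was detected on 3 arrays and UQCRB on 1, and 14 on none, among them NDUFS1, UQCRC2, UQCRH and COX7A2. These 14 were not well above background. The standard deviation between different bright probes of a gene was 0.14 to 0.22 for the log2 ratios, over 456 genes with a pair of such probes.

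The samples differed in other ways that bear on mitochondrial transcripts. The summed intensity of 14 skeletal muscle markers was 1771 in HSLC on high sodium and 21416 in HSLC on low sodium, against 2043 in NSLC on high sodium and 2724 in NSLC on low sodium. The summed intensity of 12 proximal tubule markers was 18133, 24673, 27934 and 24681 in the same order. These sums are of unscaled intensities, and in NSLC that of the proximal tubule is higher on high sodium, while the normalized ratios given below have a median below 0. Their part in the results below was not tested. In tissue RNA, fewer cells of a type and less RNA per cell cannot be told apart.

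HSLC was first set against NSLC, which the series title calls blood pressure phenotypes. The 8 members that passed the test all fell in HSLC, 4 in complex I, 3 in complex IV and UQCRHL in complex III. Of 67 members, 27 (40.3%) had both HSLC arrays below both NSLC arrays, and 5 (7.46%) had both above. Among all 11909 genes these shares were 13.4% and 14.6%. In the additive limma fit 8 of 67 members fell in HSLC (11.9%) and 0 rose at an adjusted p of 0.05, against a background of 2.82% of genes that fell and 0.823% that rose. At an unadjusted p under 0.05 there were 16 members (23.9%), against 15.1% of all genes. The calls depended on the processing, since 0 of the 8 were called with no detection filter or with the authors' second deposited table quantile-normalized, while 6 were called in 8 of 10 alternatives, NDUFB9 in 7 and NDUFA3 in 3.

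**Figure D1:**
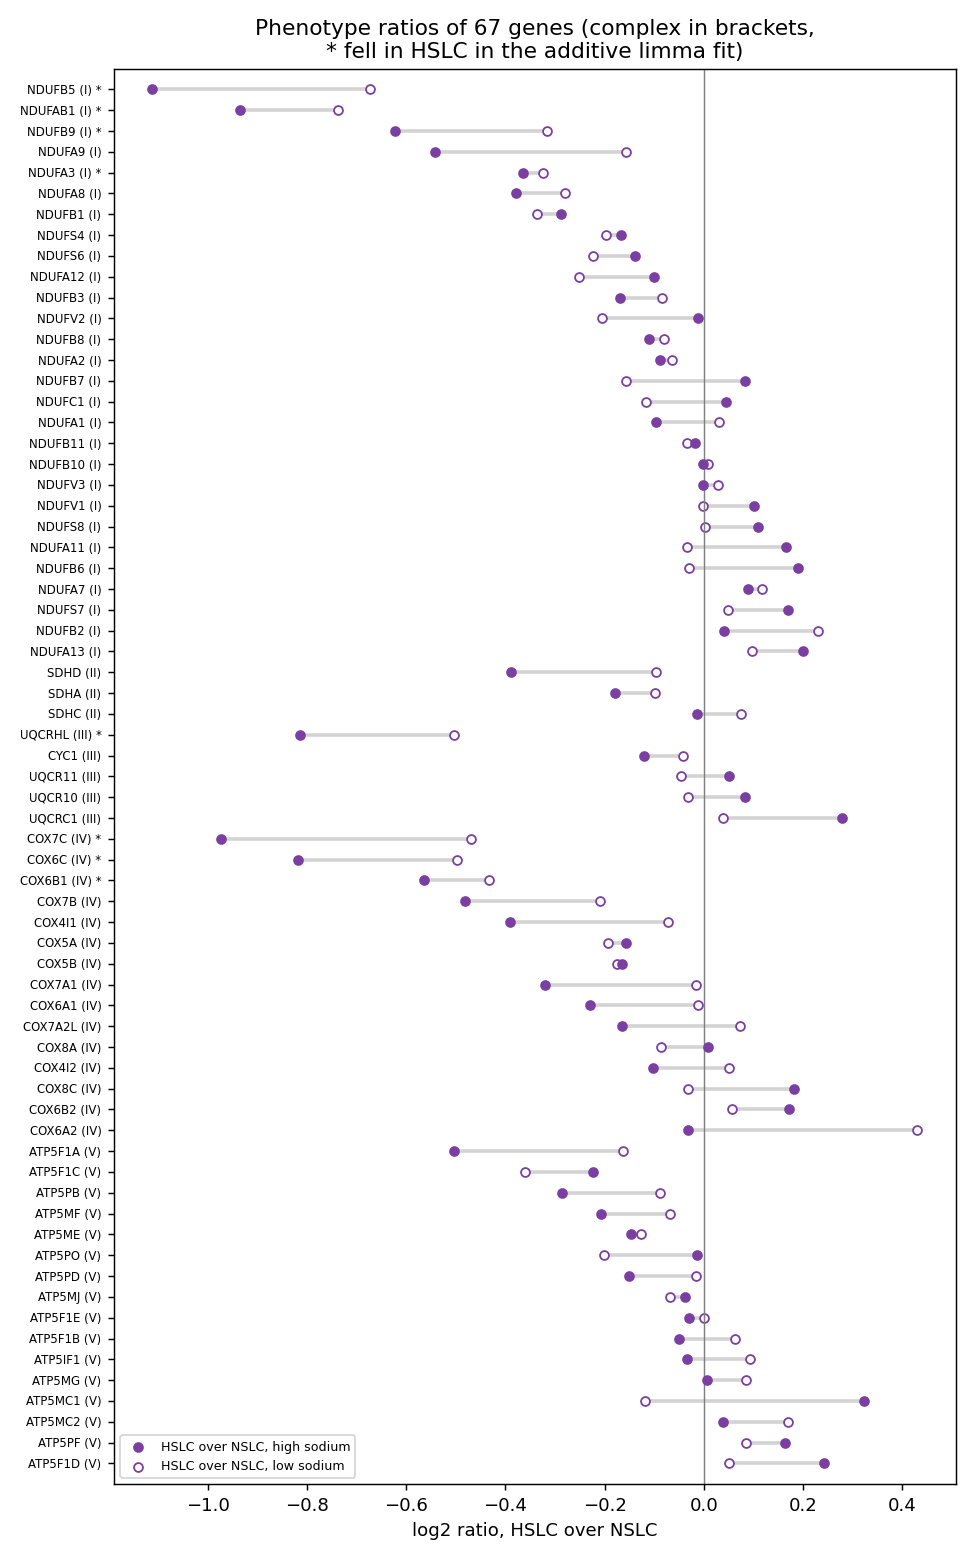
Log2 ratios of HSLC over NSLC for the 67 members detected on all arrays, grouped by complex from I at the top to V at the bottom. Filled circles are the high sodium arrays, open circles the low sodium arrays, and asterisks mark the 8 genes that fell in HSLC in the additive limma fit. NDUFB5 lies farthest left, at -1.11 on high and -0.67 on low sodium.

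NDUFB5, an accessory subunit of the membrane arm of complex I, had the largest phenotype effect among the members. Its deposited intensity was 415 in HSLC on high sodium and 439 in HSLC on low sodium, against 1131 in NSLC on high sodium and 658 in NSLC on low sodium. The corresponding log2 levels were 8.71 and 8.92 in HSLC, against 9.82 and 9.59 in NSLC, with no overlap. The gene was 2.16-fold lower in HSLC on high sodium and 1.59-fold lower on low sodium. In the limma fit NDUFB5 fell by 0.89 ± 0.11 (SE, 4 arrays, adjusted p = 0.000521).

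NDUFAB1 encodes the mitochondrial acyl carrier protein, which serves mitochondrial fatty acid synthesis and is also built into complex I. Its log2 levels were 8.13 and 8.38 in HSLC on high and low sodium, against 9.06 and 9.12 in NSLC on high and low sodium. NDUFAB1 fell by 0.84 ± 0.09 in HSLC in the limma fit (SE, 4 arrays, adjusted p = 0.000299). NDUFB9, another accessory subunit of the membrane arm, stood at 10.20 and 10.52 in HSLC, against 10.82 and 10.83 in NSLC. NDUFB9 fell by 0.47 (limma, adjusted p = 0.0161). NDUFA3 fell least of the 8, by 0.34 (limma, adjusted p = 0.0485), with levels of 10.72 and 10.75 in HSLC, against 11.08 on both NSLC arrays.

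In complex IV the genes that fell in HSLC were COX7C, COX6C and COX6B1, nuclear-encoded subunits that surround the catalytic core. COX7C had log2 levels of 7.47 on high and 7.68 on low sodium in HSLC, against 8.44 and 8.14 in NSLC. COX6C stood at 8.52 and 8.69 in HSLC, against 9.34 and 9.19 in NSLC. COX6B1, which faces the intermembrane space, stood at 9.14 and 9.33 in HSLC, against 9.71 and 9.76 in NSLC. The HSLC arrays lay below the NSLC arrays for all 3 genes. Their effects in the limma fit were -0.72 (COX7C, adjusted p = 0.00259), -0.66 (COX6C, adjusted p = 0.0023) and -0.50 (COX6B1, adjusted p = 0.0068).

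UQCRHL was the complex III gene that fell in HSLC, by 0.66 in the limma fit (adjusted p = 0.00223). Its log2 levels were 10.62 and 10.90 in HSLC, against 11.43 and 11.40 in NSLC. The parent gene UQCRH, which encodes the hinge protein between cytochromes c1 and c, is nearly identical in its coding sequence, so the probe may read either transcript. UQCRH's own probe was not well above background on any array.

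**Figure D2:**
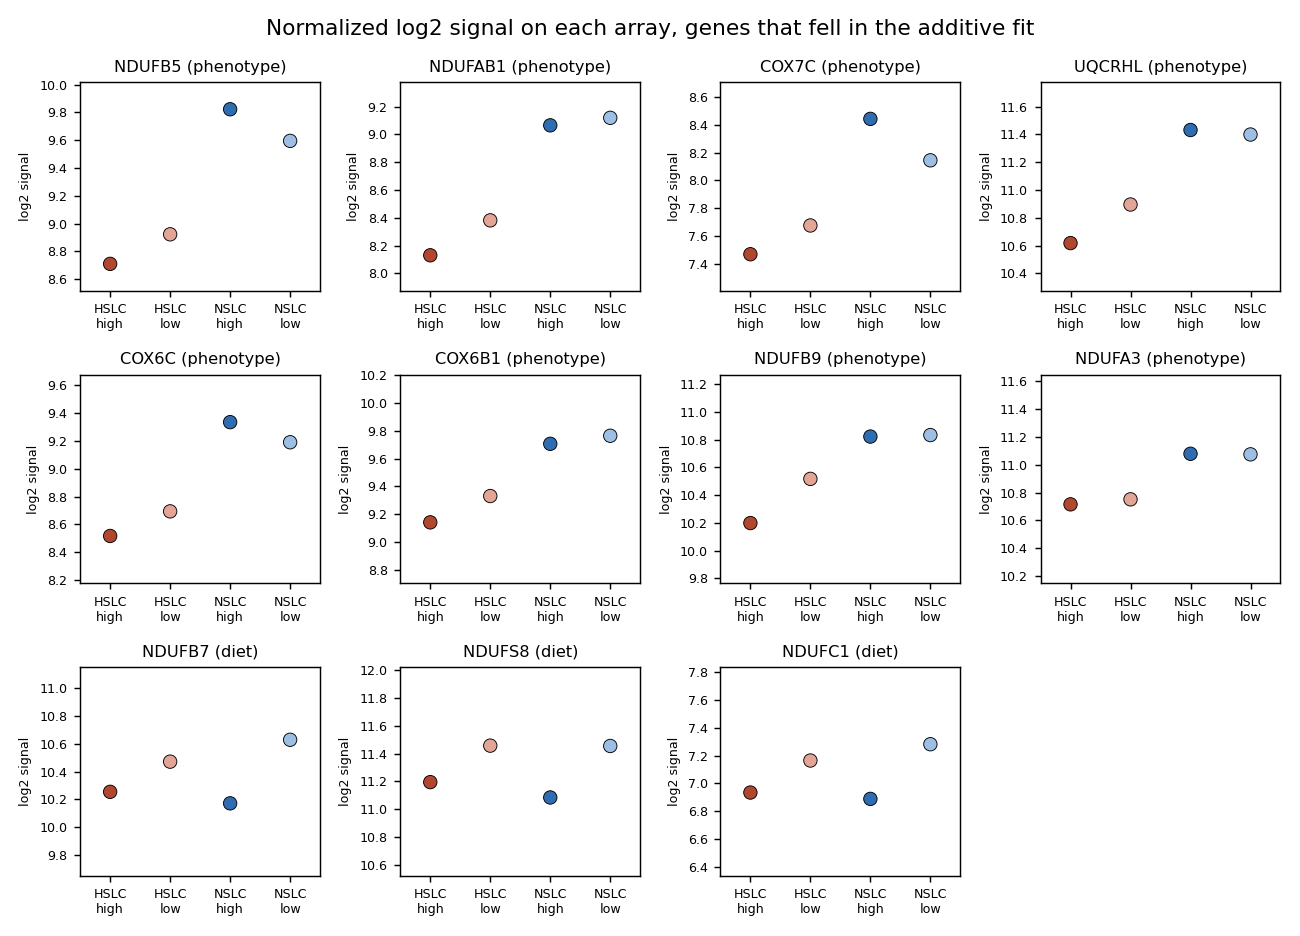
Normalized log2 signal on each of the 4 arrays for the 8 genes that fell in HSLC (titled phenotype) and the 3 that fell on high sodium (titled diet) in the additive limma fit; each point is 1 array and every panel spans 1.5 log2 units. In the phenotype panels both HSLC arrays lie below both NSLC arrays, and in the diet panels both high sodium arrays lie below both low sodium arrays.

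The core subunits of complex I that were detected did not pass the test between phenotypes. The phenotype effects were 0.05 for NDUFV1, which binds flavin and oxidises NADH, -0.11 for the iron-sulphur subunit NDUFV2, 0.11 for NDUFS7 and 0.06 for NDUFS8, with limma adjusted p-values from 0.723 to 0.963. CYC1 (cytochrome c1) stood at 12.31 and 12.43 in HSLC, against 12.43 and 12.48 in NSLC, and UQCRC1, a core protein of complex III, at 11.55 and 11.69 against 11.27 and 11.65. Neither passed the limma fit (adjusted p = 0.853 and 0.496). In complex II the flavoprotein SDHA had an effect of -0.14 and the membrane anchors SDHC and SDHD effects of 0.03 and -0.24, with 0 of 3 called. These values do not show that the core subunits were equal between the phenotypes.

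In the ATP synthase 0 of 16 members were called between phenotypes, although 7 had both HSLC arrays below both NSLC arrays (43.8%, against 13.4% of all genes) and 3 had both above (18.8%, against 14.6%). ATP5F1A, the alpha subunit of the catalytic head, stood at 7.06 and 7.24 in HSLC, against 7.57 and 7.40 in NSLC. ATP5F1C, the gamma subunit of the rotating shaft, stood at 10.58 and 10.68 in HSLC, against 10.80 and 11.04 in NSLC. Their effects were -0.33 and -0.29 (limma, adjusted p = 0.0922 and 0.101). ATP5F1B, the beta subunit that makes ATP, had 13.52 and 13.61 in HSLC, against 13.57 and 13.55 in NSLC, so its arrays overlapped.

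By size, 6 of 67 members were at least 1.5-fold lower in HSLC on high sodium (8.96%, against 2.16% of all genes) and 0 higher (0.463% of all genes). These were NDUFB5, NDUFAB1, COX7C, COX6C, UQCRHL and NDUFB9. On low sodium 2 of 68 detected members were 1.5-fold lower (2.94%, against 0.324% of all genes), NDUFB5 and NDUFAB1, and 0 were higher (0.542%). The median ratio of the members was -0.10 on high sodium (all genes 0.02) and -0.07 on low sodium (all genes 0.00). Ratios below 0 were found in 46 of 67 members on high sodium (43.9% of all genes) and 47 of 68 on low sodium (49.1% of all genes). By complex the medians on high sodium were -0.05 for I, -0.18 for II, 0.05 for III, -0.17 for IV and -0.04 for V. Without normalization they were -0.43, -0.51, -0.19, -0.58 and -0.35 in the same order (all genes -0.14), and the value of complex III was above 0 in only 4 of 9 alternatives.

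The phenotype ratios on the high and low sodium diets share no array, but the arrays of a phenotype may come from the same animals, which the limma fit does not take into account. Across the 67 members they correlated at a Pearson r of 0.78, and across all 11909 genes at 0.38. Genes on 1 array share its hybridisation and scaling, so this is a description only. The proximal tubule markers had a median phenotype ratio of -0.54 on high and -0.15 on low sodium. On high sodium 12 of 12 were below 0 (43.9% of all genes), and on low sodium 7 of 12 (49.1% of all genes). In the limma fit 5 of 12 fell in HSLC (41.7%, against 2.82% of all genes) and 0 rose (0.823% of all genes). Their part in the phenotype difference of the members was not tested. The skeletal muscle markers were at 3.30 on low sodium and 0.00 on high sodium. The 8 genes lay lower in HSLC on both diets, and the part of muscle RNA in their ratios was not tested.

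Where a member had several probes, they did not always show the same phenotype ratio. The brighter probe of ATP5PD, a subunit of the peripheral stalk, was at -0.15 on high and -0.01 on low sodium, while its dimmer detected probe was at -1.07 and -0.47. ATP5F1D, the delta subunit, was at 0.24 and 0.05 on its brighter probe and at -0.58 and -0.35 on the other. All 8 genes that fell in HSLC had 1 probe each, so no other probe of these genes could be read.

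The diet comparison asked how sodium intake bore on the same transcripts. The members lay slightly below all genes on high sodium in both phenotypes, with no member past 1.5-fold. In HSLC, 58 of 68 detected members had a ratio below 0 (47.3% of all genes did), the median was -0.13 (all genes 0.01) and the range -0.51 to 0.11. In NSLC, 47 of 67 had a ratio below 0 (43.5% of all genes), the median was -0.06 (all genes 0.04) and the range -0.46 to 0.30. The size rule counted 0 members in either direction, against 2.28% of all genes higher and 1.34% lower in HSLC, and 2.3% higher and 1.8% lower in NSLC.

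The scaling decided the sign in NSLC. Without normalization between arrays the members' median there was 0.37 (all genes 0.28), with median scaling 0.32 (all genes 0.23) and 0.10 with the second table deposited by the authors (all genes -0.07), so the members then lay above all genes. In HSLC the median stayed below 0 and below that of all genes under every scaling tried, between -0.17 and -0.04. The HSLC low sodium array, which carried the muscle transcripts, is the denominator there. Against the NSLC low sodium array instead, the median of HSLC on high sodium was -0.18 and 7 members were at least 1.5-fold lower. That ratio differs in phenotype as well as in diet, so it cannot be read as a diet ratio. The share of all genes past that size is not given here for it.

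**Figure D3:**
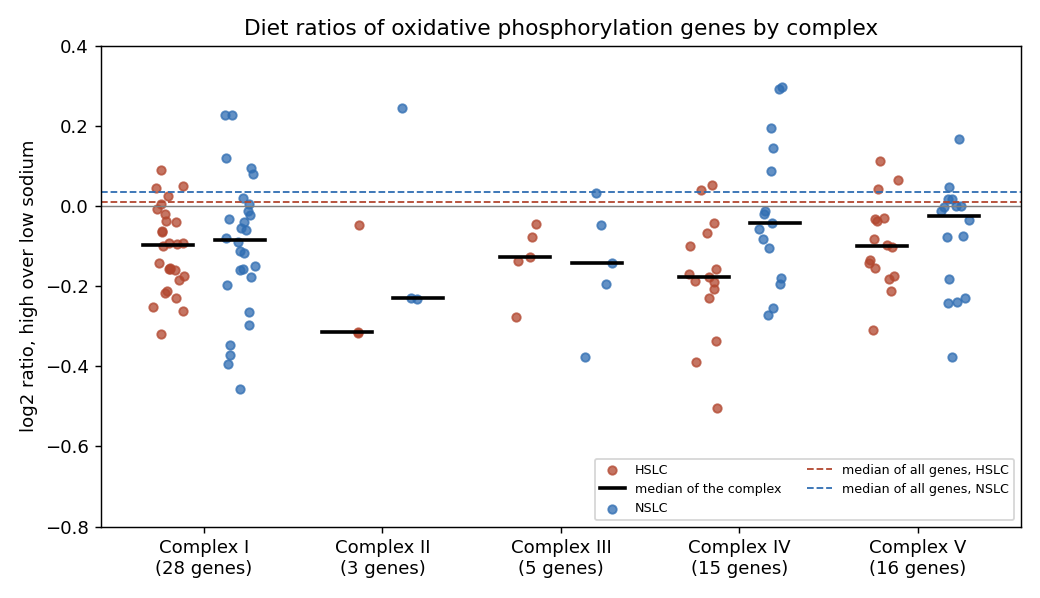
Log2 ratios of high over low sodium by complex for the 67 members detected on all arrays, with HSLC on the left and NSLC on the right of each pair. Points are genes, black bars the median of the complex, and dashed lines the median of all genes. The medians of all 5 complexes lie below 0 in both phenotypes with the normalization used here.

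In the additive limma fit 3 of 67 members fell on high sodium (4.48%) and 0 rose. Among all genes 7.05% fell and 8.72% rose, so the share of members called lower was below the background in this fit. All 3 belong to complex I. With limma's trend option, chosen after seeing the data, the order was reversed. There 9 of 67 members fell (13.4%), against 8.25% of all genes. NDUFB7, an accessory subunit, stood at 10.25 in HSLC and 10.17 in NSLC on high sodium, against 10.47 and 10.63 on low sodium. NDUFS8, a core subunit with iron-sulphur clusters, stood at 11.19 and 11.08 on high sodium, against 11.46 and 11.45 on low sodium. NDUFC1, an accessory subunit, stood at 6.93 and 6.89 on high sodium, against 7.16 and 7.28 on low sodium. The high sodium arrays lay below the low sodium arrays for all 3. They fell by 0.34, 0.32 and 0.31 (limma, adjusted p = 0.0265, 0.0282 and 0.0327), and 0 of the 3 were called without normalization or with median scaling.

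The other detected core subunits of complex I had diet effects of similar size that did not pass. The core subunits NDUFS1 and NDUFS3 were not detected on any array and did not enter the fit. NDUFV2 was at -0.25, NDUFS7 at -0.24 and NDUFV1 at -0.21, with limma adjusted p-values of 0.083, 0.0937 and 0.131. At the other end of complex I, NDUFV3 had ratios of 0.09 in HSLC and 0.12 in NSLC, and NDUFA11 of 0.05 and -0.15. NDUFB9, the lowest of the complex in HSLC at -0.32, was at -0.01 in NSLC. NDUFA9 and NDUFB5 were highest in NSLC, both at 0.23, and at -0.16 and -0.21 in HSLC.

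Complex II had the lowest median of the complexes in both phenotypes, over only 3 genes (-0.31 in HSLC and -0.23 in NSLC). SDHA stood at 10.01 in HSLC and 10.19 in NSLC on high sodium, against 10.32 and 10.42 on low sodium. SDHC stood at 11.45 and 11.46 on high sodium, against 11.76 and 11.69 on low sodium. Neither pair of arrays overlapped. The effect was -0.27 for each and missed the threshold (limma, adjusted p = 0.0526 and 0.0529), and SDHD was at -0.05 in HSLC and 0.24 in NSLC. A second detected probe of SDHA was at -0.06 and -0.13.

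In complex III the lowest diet ratios were those of UQCRHL in HSLC (-0.28) and UQCRC1 in NSLC (-0.38). UQCRC1 stood at 11.55 in HSLC and 11.27 in NSLC on high sodium, against 11.69 and 11.65 on low sodium, with an effect of -0.26 (limma, adjusted p = 0.0809). The other members lay between -0.19 and 0.03 in NSLC. The small subunit UQCR10 was at -0.08 in HSLC and -0.19 in NSLC, but its other detected probe was at 0.01 and 0.23.

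In the ATP synthase the lowest diet ratio in HSLC was that of ATP5IF1, which blocks ATP hydrolysis by the enzyme when respiration fails. ATP5IF1 stood at 11.19 in HSLC and 11.22 in NSLC on high sodium, against 11.50 and 11.40 on low sodium, an effect of -0.24 (limma, adjusted p = 0.0827). ATP5MJ, a small membrane subunit, was at -0.21 in HSLC and -0.24 in NSLC. The highest ratio in HSLC was 0.11, for ATP5PO of the peripheral stalk, and in NSLC 0.17, for ATP5F1A. ATP5F1B was at -0.10 and 0.02.

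The genes of the c-ring, the rotor that the proton flow turns, gave unlike values by gene and by probe. ATP5MC1 stood at 8.72 in HSLC on high and 8.65 on low sodium, and at 8.40 and 8.77 in NSLC, which gives diet ratios of 0.07 and -0.38. Its other detected probe was at -0.02 and 0.11. ATP5MC2 was at -0.08 in HSLC and 0.05 in NSLC on its brightest probe, and at -0.18 and -0.47 on another. ATP5MC3 was not well above background.

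Complex IV has tissue-specific isoforms, and the muscle forms were the lowest of the complex in the HSLC diet comparison. COX6A2, the isoform of heart and skeletal muscle, had deposited intensities of 74.5 on high and 111 on low sodium in HSLC, against 88.6 and 88.3 in NSLC. Only the HSLC low sodium array, the one with the muscle markers, stood out. The diet ratio of COX6A2 was -0.51 in HSLC and -0.04 in NSLC, and its phenotype ratio 0.43 on low and -0.03 on high sodium. Its intensities were not far above the array medians of 68.2 to 79.5, so these ratios are uncertain. The general form COX6A1 was at -0.23 in HSLC and -0.01 in NSLC for diet. COX7A1, also a muscle isoform, stood at 8.11 on high and 8.49 on low sodium in HSLC, and at 8.43 and 8.51 in NSLC. On the HSLC low sodium array COX7A1 therefore lay between the NSLC arrays, and its counterpart COX7A2 was not well above background. Without COX6A2 and COX7A1 the median diet ratio in HSLC over all the other detected members was -0.11. Leaving out so few genes can shift a median only slightly, so this value does not bear on the part of muscle RNA, which was not tested.

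Other isoforms of complex IV differed in their ratios. COX4I1, the general form of the subunit through which ATP regulates the enzyme, stood at 13.20 on high and 13.54 on low sodium in HSLC, against 13.59 and 13.61 in NSLC, so that the HSLC high sodium array stood lowest. The lung isoform COX4I2 lay between 7.01 and 7.21 on all arrays. The testis isoforms COX6B2 and COX8C were at -0.27 and -0.25 in NSLC and at -0.16 and -0.04 in HSLC. COX7A2L was at 0.05 in HSLC and 0.29 in NSLC, and COX7C at -0.21 and 0.30. The deposited intensities of COX6B2, COX8C and COX7A2L were 79.8 to 112, not far above the array medians of 68.2 to 79.5, so their ratios are uncertain.

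The difference of the diet ratios, HSLC minus NSLC, has no test here. Its median over the members was -0.03 (all genes 0.00). The difference was lowest for COX7C (-0.51) and COX6A2 (-0.46) and highest for ATP5MC1 (0.44). The signal of COX6A2 was not far above the array medians. By the size rule 0 members passed 1.5-fold (0.613% of all genes did upward and 1.23% downward). The median was -0.22 in complex IV, 0.10 in complex III and 0.00 in complex I, but -0.25 in complex III and -0.34 in complex I without normalization. The diet ratios of the phenotypes correlated at a Pearson r of 0.13 across the members and 0.64 across all genes. No array was shared, which holds for arrays and not for animals. The members' diet ratios had standard deviations of 0.12 in HSLC and 0.17 in NSLC, against 0.26 and 0.28 for all genes. Between probes of a gene these were 0.17 and 0.22. With so narrow a spread the low r does not show that the diet response of the members differed between phenotypes.

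Other genes of mitochondrial energy metabolism were set beside these values, against 7.05% of all genes that fell and 8.72% that rose on high sodium. The tricarboxylic acid cycle list had 3 of 11 detected genes that fell in the limma fit (27.3%) and 0 that rose, led by DLST of the 2-oxoglutarate dehydrogenase complex at -0.49 (adjusted p = 0.00217). Of 28 assembly factors 2 fell (7.14%, close to the share of all genes), ECSIT of complex I (-0.40, limma adjusted p = 0.0132) and ATPAF1 of the ATP synthase (-0.33, limma adjusted p = 0.022). Coenzyme Q synthesis had 2 of 11 genes that fell (18.2%), COQ10A at -0.50 and COQ6 at -0.30. Among 14 carriers and transporters 2 fell (14.3%). CKMT2, the sarcomeric mitochondrial creatine kinase, fell by 1.02 (limma adjusted p = 0.00242), with 1.01 as its phenotype ratio on low sodium beside the muscle markers. ETFB, an electron transfer flavoprotein subunit, fell by 0.36 (limma adjusted p = 0.0156).

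Of 20 regulators of mitochondrial biogenesis, 2 rose (10%) and 1 fell (5%) on high sodium in the limma fit, shares close to those of all genes. ESRRB, an orphan nuclear receptor, rose by 0.58 (adjusted p = 0.00067) and GABPB1, a partner of a nuclear respiratory factor, by 0.30 (adjusted p = 0.0365). ESRRG, a receptor that drives oxidative genes, fell by 0.31 (limma adjusted p = 0.0298). PPARGC1A, the coactivator of the programme, had a diet effect of -0.02 and a phenotype effect of 0.12, and TFAM, which binds and packages mitochondrial DNA, of -0.18 and -0.04, and none of these passed.

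Between phenotypes, 11 of 69 genes of the mitochondrial ribosome fell in HSLC (15.9%) and 0 rose, and 5 of 50 of the cytosolic ribosome fell (10%) and 0 rose, against 2.82% of all genes that fell and 0.823% that rose. Of the assembly factors 0 of 28 were called in the limma fit (4 at an unadjusted p under 0.05). SSBP1, a single-stranded DNA binding protein of the mitochondrial nucleoid, fell by 0.68 (limma adjusted p = 0.00113) and VDAC2, a channel of the outer membrane, by 0.48 (limma adjusted p = 0.00927). SUCLA2 of the tricarboxylic acid cycle fell by 0.41 (limma adjusted p = 0.022) and COQ8A of coenzyme Q synthesis by 0.56 (limma adjusted p = 0.0197). Each of these 4 genes was the only one of its list that fell in HSLC. ESRRB, of the same list as SSBP1, rose in HSLC by 0.37 (limma adjusted p = 0.0355).

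**Figure D4:**
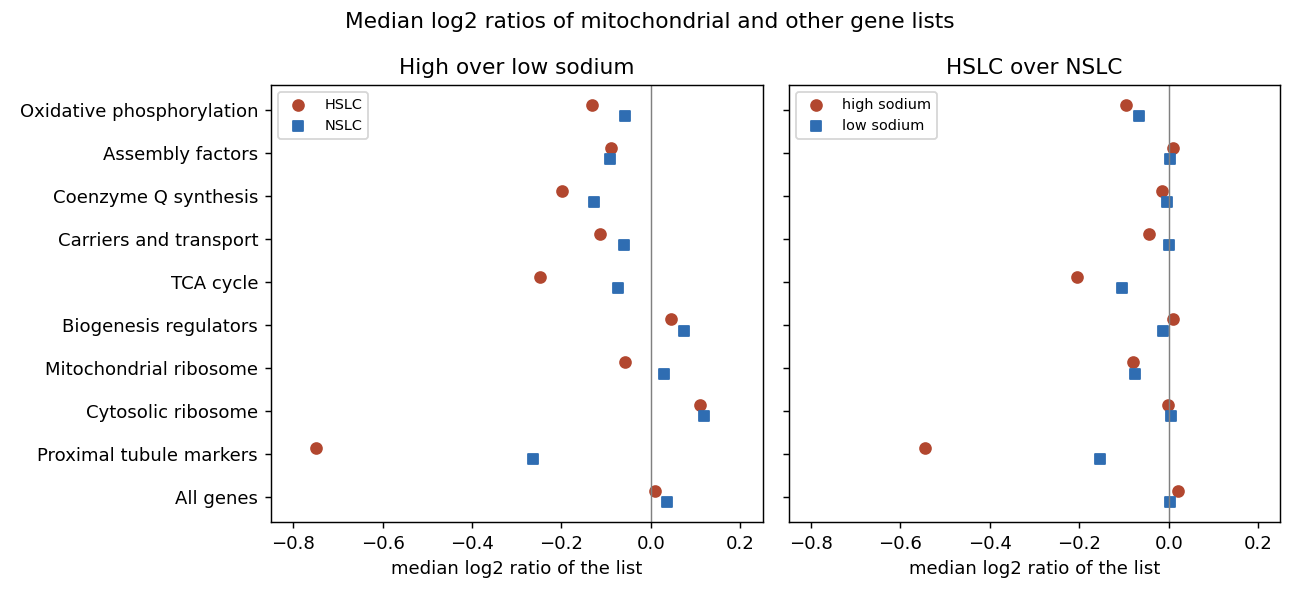
Median log2 ratio of the mitochondrial, ribosomal and proximal tubule lists and of all genes, for high over low sodium on the left (HSLC circles, NSLC squares) and HSLC over NSLC on the right (high sodium circles, low sodium squares). Among the lists plotted the proximal tubule markers lie lowest, at -0.75 and -0.26 for diet, against -0.13 and -0.06 for the oxidative phosphorylation genes.

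Markers of nephron segments also differed in the diet comparison. The median of the proximal tubule markers was -0.75 in HSLC, with 12 of 12 below 0, and -0.26 in NSLC, with 11 of 12 below 0, and 10 of 12 fell in the limma fit. Distal and connecting tubule markers had medians of -0.52 in HSLC and -0.93 in NSLC and 3 of 4 fell, and intercalated cell markers had medians of -0.29 and -0.39 and 3 of 5 fell. Of the thick ascending limb markers 2 of 3 rose, with medians of 0.19 and 0.53. Macrophage markers rose in 6 of 6 tested genes and fibroblast markers in 4 of 5. The part of these cell types in the members' ratios was not tested.

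The dependence on scaling differed between the comparisons. The median of the members lay below that of all genes in all 9 recomputations of the phenotype ratio on high sodium, and in 8 of 9 on low sodium. The count of members with both HSLC arrays below both NSLC arrays was 24 to 32, or 47 with the second deposited table as it stands. In that table most genes were lower in HSLC, since 10261 of 11832 had a phenotype effect below 0 in the limma fit. The count with both high sodium arrays below both low sodium arrays was 26 of 67 (38.8%, against 26.2% of all genes), and 3 had the reverse order (4.48%, against 31.0% of all genes). Without normalization the first of these diet counts was 6 and the second 14, while 8997 of 11909 genes had a diet effect above 0 in the limma fit. The shares of all genes with these array orders are not given here for the other settings.

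**Figure D5:**
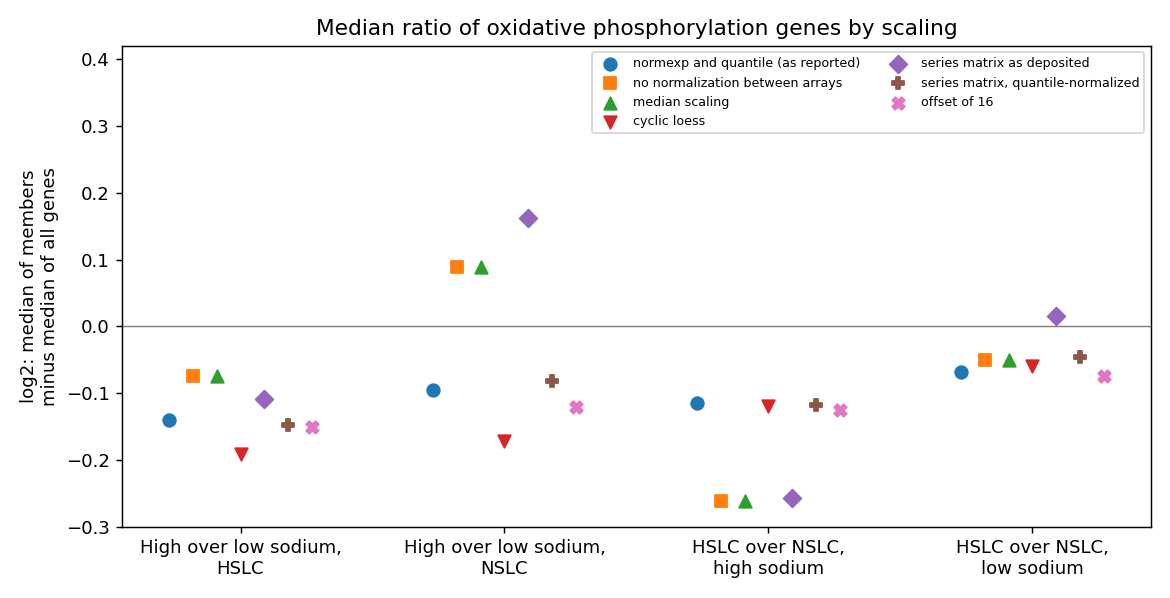
Median log2 ratio of the members minus the median of all genes, for 4 comparisons and 7 ways of scaling; each symbol is 1 scaling. The values for diet in NSLC lie on both sides of 0, from -0.17 to 0.16, and those for HSLC over NSLC on high sodium all lie below 0.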

How the data were processed

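Kidney RNA was labelled with the Illumina TotalPrep kit, per the labels' protocols. The deposited files hold linear intensity per probe, made with BeadStudio per the submitters' processing notes (version not given in the sources used here), and the series matrix, a second deposited table of intensity, has equal means within each phenotype (192 in HSLC, 215 in NSLC). No source used here states how the authors corrected background or scaled the arrays. The array medians were 68.2 to 79.5.

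The sample files, without 1 probe at 0, were corrected with normexp (offset 50), quantile-normalized and put on the log2 scale (limma 3.58.1, R 4.3.3). Genes came from 23688 probes with 1 symbol in GEO's platform annotation (35 had several). Each gene was represented by its brightest probe. Equal ranks on 2 arrays give a ratio of exactly 0. The additive limma fit used Benjamini-Hochberg adjustment at 0.05 over all 11909 genes. It was tested on simulated data. Every member could be named. Values on every array are given for members called by the fit and for some of the core subunits, isoforms and extremes of the diet ratios. Other members are given by effects, ratios or ranges, or only within counts. SDHB, UQCRFS1 and NDUFA4 were not analysed here. The members, lists and tests were chosen with earlier results of these data known. The number of arrays limits the precision.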

Additional observations from a re-analysis of the deposited data

Results flagged for a closer look

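In 2 genes the diet ratio was at least 0.2 on the log2 scale in both phenotypes and ran in opposite directions. COX7C had a diet ratio of -0.21 in HSLC and 0.30 in NSLC, a difference of -0.51. NDUFB5 had -0.21 in HSLC and 0.23 in NSLC, a difference of -0.44. With 1 array per group neither difference was tested, and the minimum of 0.2 was set after the data were seen. Both genes are among those that fell in HSLC in the limma fit.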

How the results depend on the processing

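No paired analysis was possible because each group has 1 array and the labels give no replicate numbers. For the same reason no array was left out.

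Settings moved the size counts as follows, and the cause was not tested. The NSLC diet median was 0.37 without normalization and 0.32 with median scaling, with 5 and 3 members higher by 1.5-fold. Without normalization these were 7.46% of members, against 17.1% of all genes, so the members' share was below the background. The high sodium phenotype median was -0.31 with the second deposited table, -0.33 with median scaling and -0.40 without normalization, with 11, 13 and 17 members lower, against 10 with an offset of 16 and 1 at 2-fold. The 17 without normalization were 25.4% of members, against 7.04% of all genes. On low sodium, 1 member was lower with the second table, with median scaling and with no normalization, and 0 with that table quantile-normalized or at 2-fold. The 1 without normalization was 1.47% of members, against 0.21% of all genes. An offset of 16 gave 1 higher on low sodium for phenotype and 1 lower for diet in HSLC. The 7 lower in HSLC on high sodium against the NSLC low sodium array came from a ratio that mixes diet and phenotype. The median difference of diet ratios was -0.39 without normalization and -0.32 with median scaling, with 12 and 8 members lower, against 3 with the second table and 2 with an offset of 16. The 12 without normalization were 17.9% of members, against 7.54% of all genes. Shares of all genes past 1.5-fold are not given here for the other settings. Members with both HSLC arrays lower were 47 with the second table, in which 10261 of 11832 genes had a phenotype effect below 0 in the limma fit. Those with both high sodium arrays lower were 11 with the second table, 8 with median scaling and 6 without normalization. Of 11909 genes, 8667 had a diet effect above 0 with median scaling and 8997 without normalization.

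In the additive limma fit for diet, 0 members fell without normalization, with median scaling or with no detection filter. The count was 1 with the second table either way, and 9 with limma's trend option. The 9 were 13.4% of members, against 8.25% of all genes. Genes of the whole table that fell were 416 with cyclic loess, 73 with median scaling, 37 without normalization, 279 with the second table, 148 with it quantile-normalized and 264 with no filter. Those that rose numbered 1763 with median scaling, 569 and 280 with the second table as deposited and quantile-normalized, and 583 with no filter.

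In the limma fit for phenotype, 13 members fell with the second table, and 0 with it quantile-normalized or with no filter. Genes of the whole table that fell were 127 with cyclic loess, 165 with median scaling, 182 without normalization, 528 with the second table, 1 with it quantile-normalized, 1 with no filter, 202 with the mean over probes and 563 with the trend option. Those that rose numbered 12, 23, 25, 41, 0, 0, 53 and 206 in the same order, and 156 with an offset of 16. The quantile-normalized second table and the trend option were chosen after seeing the data. Signal over background limits the 16 members not detected on every array.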
